A study of Mus musculus with 16 samples.

Results

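Imprinted growth genes are a group of 10 genes (Mest, Plagl1, Nnat, Igf2, H19, Dlk1, Meg3, Peg3, Grb10 and Cdkn1c) that were followed here in adult mouse lungs after exposure to tobacco smoke before birth. They were found as all probe sets whose platform annotation gave exactly 1 gene symbol that was a member's symbol or a synonym of it, which gave 31 of the 45037 probe sets tested and 9 of the 18193 genes with such a probe set. Meg3 had 11 probe sets, Plagl1 and Peg3 5 each, Grb10 3, Igf2 and Dlk1 2 each, and Mest, Nnat and Cdkn1c 1 each. The H19 probe set carried a second symbol, that of the microRNA gene Mir675 within it, so the rule left it out and H19 has no value here. Each gene is represented by a main probe set, the one with the highest average level. Both lowest Plagl1 probe sets (1433221_at and 1433222_at) were annotated with 2610311E24Rik, which RefSeq lists as a synonym of Plagl1, although the platform's Entrez identifier for them was not that of Plagl1.

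The lungs came from 23-week-old Balb/c mice, an inbred strain often used as a model of allergic asthma, in 4 groups of 4 with 1 left lung per array. Females that met second-hand smoke (SHS) before birth, called SHS females, were set against females that met filtered air (air females), and SHS males against air males. Smoke was given as sidestream smoke, the smoke from the burning tip, at a particle load of 10 mg/m3, and smoke and air alike were given for 5 hours on 7 days of each week. Every mouse, control mice included, was sensitized to ovalbumin (OVA), an allergen from egg white, by injections at 19 and 21 weeks and then breathed OVA aerosol in weeks 22 and 23, so all differences below are between allergen-challenged lungs. The labels name no mothers or litters, so littermates within a group could not be told from unrelated mice. Values are log2 intensities on Affymetrix mouse 430 2.0 arrays, and females were never set against males.

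Imprinted genes are transcribed mainly from the copy inherited from a given parent, because DNA methylation laid down in egg or sperm is kept on that copy through development. Many of them act on growth of the fetus and placenta, with paternally expressed members often promoting growth and maternally expressed ones often restraining it, and many fall in level together after birth. Plagl1, Nnat, Mest, Igf2, Dlk1 and Peg3 are expressed from the paternal copy. H19, Meg3 and Cdkn1c are expressed from the maternal copy, as is Grb10 in most tissues outside the brain. The arrays measured the total transcript and could not tell the copies apart, and methylation was not measured.

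The promoters of the 4 genes that differed between SHS and air lungs are printed with each cytosine followed by guanine in capitals. DNA methylation is placed on such CG pairs. Whether any of these windows holds a parental mark was not tested, and the number of CG pairs does not show it. The sequences are RefSeq promoters of GRCm38.p6, each from 250 bases before to 50 bases after a transcript start and read in the direction of the gene. They lie at chr10:13090582-13090881 (plus strand) for Plagl1, chr2:157559828-157560127 (plus strand) for Nnat, chr6:30737800-30738099 (plus strand) for Mest and chr11:12037371-12037670 (minus strand) for Grb10.
Plagl1: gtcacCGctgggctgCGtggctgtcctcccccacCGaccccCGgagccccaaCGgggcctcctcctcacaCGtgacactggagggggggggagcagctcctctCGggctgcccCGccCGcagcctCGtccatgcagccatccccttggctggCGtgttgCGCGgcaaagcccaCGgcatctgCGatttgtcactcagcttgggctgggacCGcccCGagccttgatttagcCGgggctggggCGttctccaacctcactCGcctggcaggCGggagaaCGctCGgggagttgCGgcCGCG
Nnat: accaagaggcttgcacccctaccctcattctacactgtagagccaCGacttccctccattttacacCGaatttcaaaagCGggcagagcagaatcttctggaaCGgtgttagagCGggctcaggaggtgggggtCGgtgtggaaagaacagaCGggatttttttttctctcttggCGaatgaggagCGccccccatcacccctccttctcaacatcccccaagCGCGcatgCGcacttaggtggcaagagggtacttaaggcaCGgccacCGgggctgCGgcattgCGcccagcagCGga
Mest: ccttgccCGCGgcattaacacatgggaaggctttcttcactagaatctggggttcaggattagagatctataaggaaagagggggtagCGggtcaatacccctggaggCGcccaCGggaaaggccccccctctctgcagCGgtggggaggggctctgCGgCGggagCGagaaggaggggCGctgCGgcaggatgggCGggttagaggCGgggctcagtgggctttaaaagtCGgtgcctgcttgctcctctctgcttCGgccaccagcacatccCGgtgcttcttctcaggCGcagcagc
Grb10: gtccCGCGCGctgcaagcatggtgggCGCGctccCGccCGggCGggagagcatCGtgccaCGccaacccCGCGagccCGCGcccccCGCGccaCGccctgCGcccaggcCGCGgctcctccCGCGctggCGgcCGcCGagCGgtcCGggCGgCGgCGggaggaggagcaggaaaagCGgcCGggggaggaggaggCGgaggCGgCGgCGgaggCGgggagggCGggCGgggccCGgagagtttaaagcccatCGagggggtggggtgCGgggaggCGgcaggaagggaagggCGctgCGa
The Grb10 window held 45 CG pairs, a number reached by 1.93% of the 32851 promoters in the table, whose median was 7. The Plagl1 window held 26, reached by 16.9% of promoters, and the Nnat and Mest windows held 17 each, reached by 31.4%. A second Mest window held 8 pairs and a second Grb10 window 9, and another Mest window, which overlaps the one printed, held 17. The letters GGGGCCCC, a palindrome that the Plagl1 protein can bind, were searched on both strands, which for a palindrome is a single search. They were present in 1.08% of all promoters and in none of the 4 windows printed, and the Peg3 promoter held them 1 time. A missing match says nothing about binding elsewhere.

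Before the results, 1 library needs to be named. The array of SHS female replicate 4 had a mean correlation across probe sets of 0.992 with the other SHS females and 0.995 with the air females, and values without it are given beside the results it moves most. Arrays of the same sex correlated at 0.990 to 0.998. Lung markers such as Sftpc, Scgb1a1 and Ager had a mean log2 level of 12.67 to 13.05 on all 16 arrays. Probe sets of Y-linked genes on female arrays, which have no transcript to bind, lay between 2.85 and 5.23, and probe sets of 6 genes not expected in lung (Umod, Crygd, Tyrp1, Csn2, Amelx and Prm1) averaged 3.38 to 7.39 on the log2 scale. The level that marks an absent transcript therefore differed between probe sets. With 4 mice in a group, the number of arrays limits the precision of every value below.

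The effect averaged over the sexes is the mean of the within-sex differences. In it, of the 9 measured genes read by their main probe sets, Plagl1, Nnat and Grb10 were lower and Mest was higher after SHS. This made 4 of 31 probe sets called at an adjusted p under 0.05 in limma, 1 higher and 3 lower, against 10.3% of all probe sets called (6.65% higher and 3.67% lower). Within females 1 of 31 was called, Plagl1, lower, against 2.87% of all probe sets (2.36% higher and 0.517% lower). Within males 1 of 31 was called, Grb10, lower, against 5.18% of all probe sets (3.07% higher and 2.11% lower). At an unadjusted p under 0.05 in limma there were 8 of 31 in females, 5 in males and 9 in the averaged effect, against 16%, 20.2% and 23.7% of all probe sets. The shares of members called within a sex were thus close to the background, and the members' median log2 difference was -0.01 in females, 0.00 in males and 0.01 in the averaged effect, beside -0.01, -0.00 and -0.01 over all probe sets. Without SHS female replicate 4, 4 of 31 were called in females, against 8% of all probe sets, 4 in males, against 7%, and 6 in the averaged effect, against 15.5%. The difference of the effect between the sexes, females minus males, was called for none of the 31 in limma, nor for any other probe set, with 3 of 31 below an unadjusted p of 0.05, against 8.24% of all probe sets. Bulk lung cannot tell fewer cells of a type from less RNA per cell, and this holds for every gene below.

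**Figure D1:**
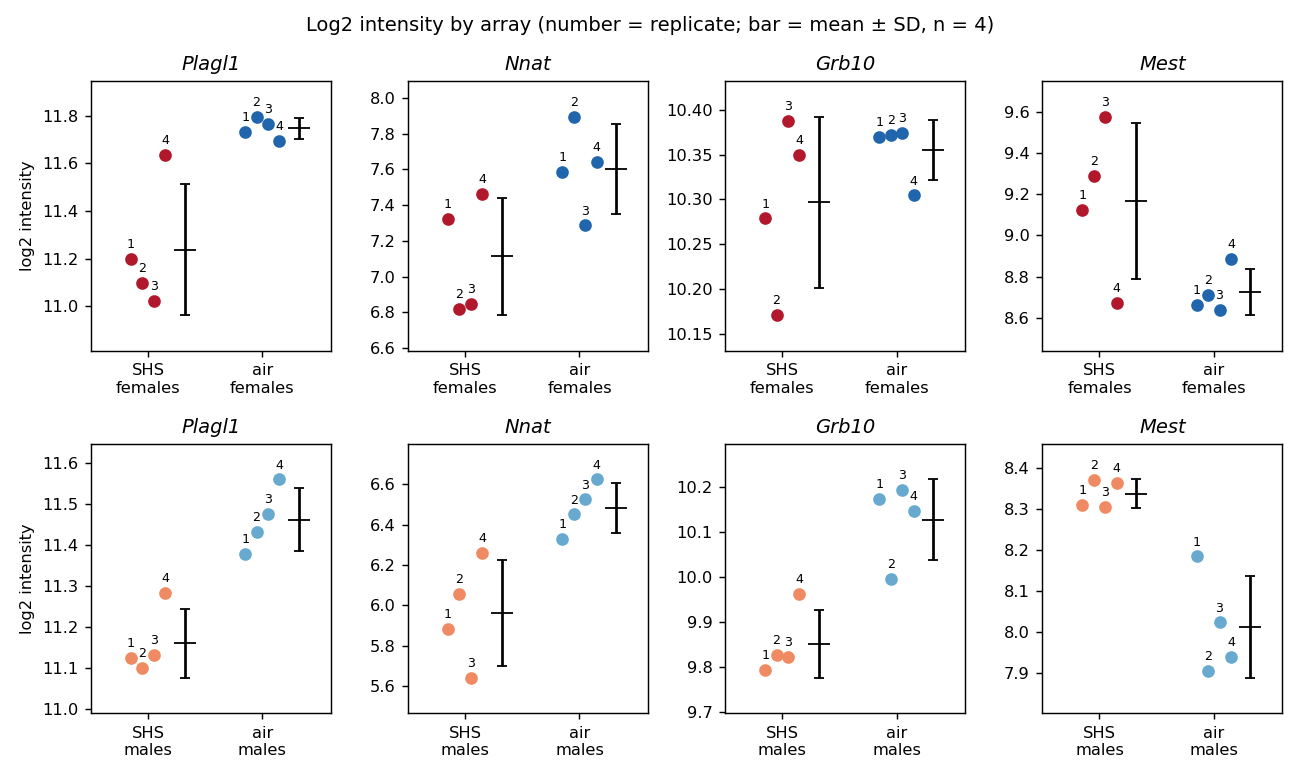
Log2 intensity of the main probe sets of Plagl1, Nnat, Grb10 and Mest on each array, SHS left of air, females in the top row and males in the bottom row. Numbers are replicates and bars give the mean ± SD of 4 arrays. Plagl1 is lower after SHS with no overlap in both sexes, and SHS female replicate 4 lies near the air females for Plagl1 and Mest.

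Plagl1, a zinc finger transcription factor that restrains proliferation of cultured cells and regulates other imprinted genes, lies on chr10:13090832-13131694. Its main probe set (1426208_x_at) read 11.20, 11.10, 11.02 and 11.64 log2 units in SHS females, against 11.73, 11.80, 11.77 and 11.69 in air females. It read 11.12, 11.10, 11.13 and 11.28 in SHS males, against 11.38, 11.43, 11.48 and 11.56 in air males. The SHS and air arrays did not overlap in either sex, and the SHS female nearest to air was replicate 4. No overlap was seen for 1 of 31 member probe sets in females, where 8.25% of all probe sets showed none, and for 4 of 31 in males, where 15.4% did.

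The Plagl1 means were 11.24 ± 0.28 in SHS females and 11.75 ± 0.04 in air females (SD, n = 4 each), a log2 difference of -0.51 ± 0.10 (SE, adjusted p = 0.00982 in limma, 95% interval -0.72 to -0.30), so the intensity fell by 29.8%. The means were 11.16 ± 0.08 in SHS males and 11.46 ± 0.08 in air males (SD, n = 4 each), a log2 difference of -0.30 ± 0.10 that missed the threshold (SE, adjusted p = 0.0954 in limma). The averaged log2 difference was -0.41 ± 0.07 (SE, adjusted p = 0.00134 in limma). Females minus males, the effects differed by -0.21 on the log2 scale, with a 95% interval of -0.51 to 0.09 (adjusted p = 0.736 in limma), so a difference between the sexes was not shown. Without SHS female replicate 4, the female difference was -0.64 (adjusted p = 3.6e-05) and the male difference, unchanged at -0.30, passed the threshold (adjusted p = 0.011), because the spread is estimated over all groups. Fitted on the 8 female arrays alone, the female difference missed the threshold (adjusted p = 0.0731).

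The other 4 Plagl1 probe sets did not pass the test in females, in males or in the averaged effect. Their mean levels were 4.52 to 6.57, against 11.40 for the main one. The Plagl1 calls over all arrays thus rest on 1 probe set. The means of the other 4 lay below the highest average among probe sets of genes not expected in lung, although single arrays lay above it. The part of their signal that came from Plagl1 transcript is therefore uncertain. Probe set 1450533_a_at read 6.81, 6.64, 6.82 and 7.56 in SHS females, against 7.43, 7.39, 7.31 and 7.43 in air females, so 3 of 4 SHS females lay below every air female and replicate 4 lay above them all. Its log2 difference was -0.43 in females (adjusted p = 0.174 in limma) and 0.04 in males (adjusted p = 0.921 in limma). Without SHS female replicate 4 the female value was -0.63 and passed the threshold (adjusted p = 0.00314). Probe set 1438588_at read 6.70, 6.69, 6.48 and 6.90 in SHS males, against 7.88, 7.19, 6.88 and 7.05 in air males, groups that overlapped. Its log2 difference was -0.56 ± 0.17 in males (SE, adjusted p = 0.0613 in limma) and -0.17 in females. The probe sets with the 2610311E24Rik annotation differed by -0.07 and -0.19 in females and by 0.08 and 0.23 in males, none of them called. With the mean of each sex subtracted, the main probe set correlated over 16 arrays at 0.61 with 1450533_a_at, at 0.46 with 1438588_at and at 0.11 and 0.07 with the other pair. The 5 probe sets thus did not share 1 pattern, and which transcripts each of them detects was not analysed here.

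Nnat encodes neuronatin, a small membrane protein of the endoplasmic reticulum known from brain and pancreatic islets, and lies on chr2:157560078-157562525. It read 7.32, 6.82, 6.85 and 7.46 in SHS females, against 7.59, 7.89, 7.29 and 7.64 in air females, with SHS replicates 1 and 4 above the lowest air female. It read 5.88, 6.06, 5.64 and 6.26 in SHS males, against 6.33, 6.45, 6.52 and 6.62 in air males, and these groups did not overlap. SHS female replicate 4 and air female replicates 1, 2 and 4 lay above 7.39, the highest average among the probe sets of genes not expected in lung, and the other 12 arrays lay below it. The part of the signal that came from Nnat transcript is uncertain on those 12.

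Nnat averaged 7.11 ± 0.33 in SHS females and 7.60 ± 0.25 in air females (SD, n = 4 each), a log2 difference of -0.49 ± 0.16 (SE, adjusted p = 0.106 in limma). It averaged 5.96 ± 0.26 in SHS males and 6.48 ± 0.12 in air males (SD, n = 4 each), a log2 difference of -0.52 ± 0.16 (SE, adjusted p = 0.0613 in limma). Neither passed the threshold alone, and the averaged difference of -0.51 ± 0.11 did (SE, adjusted p = 0.00639 in limma), the intensity having decreased by 29.5%. The female and male differences were of like size, and their difference had a 95% interval of -0.43 to 0.50 on the log2 scale. Without SHS female replicate 4 the female value was -0.61 (adjusted p = 0.0224) and the male one passed the threshold (adjusted p = 0.0365). Leaving out SHS female replicate 2 (adjusted p = 0.0477) or SHS male replicate 4 (-0.62, adjusted p = 0.0362) also brought the male value past it. In the other 13 of 16 fits with 1 array left out, the male value stayed uncalled. Over these 16 fits the difference ran from -0.61 to -0.39 in females and from -0.62 to -0.41 in males. Markers of nerve and neuroendocrine cells, of which 5 of 9 had a probe set, averaged 4.78 to 5.03 in SHS females and 4.76 to 5.04 in air females, and 4.82 to 4.86 in SHS males and 4.76 to 5.01 in air males. All 5 lay below the median probe-set level of 7.02, and their averages lay inside the range of the Y-linked probe sets on female arrays. Whether they report the content of nerve cells is therefore uncertain. None of the 5 was called in either sex, and their part in the Nnat difference was not tested.

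Mest, a member of the alpha/beta hydrolase fold family that marks growing fetal and expanding adipose tissue, lies on chr6:30733506-30748466. It read 9.12, 9.29, 9.58 and 8.67 in SHS females, against 8.66, 8.71, 8.64 and 8.89 in air females. Replicates 1 to 3 of the SHS females lay above every air female, and replicate 4 lay among the air females. It read 8.31, 8.37, 8.31 and 8.36 in SHS males, against 8.18, 7.90, 8.02 and 7.94 in air males, with every SHS male above every air male. Its means were 9.17 ± 0.38 in SHS females and 8.72 ± 0.11 in air females (SD, n = 4 each), a log2 difference of 0.44 ± 0.13 that missed the threshold (SE, adjusted p = 0.0819 in limma). They were 8.34 ± 0.03 in SHS males and 8.01 ± 0.12 in air males (SD, n = 4 each), a log2 difference of 0.32 ± 0.13 (SE, adjusted p = 0.17 in limma). The averaged difference of 0.38 ± 0.09 passed the threshold (SE, adjusted p = 0.0127 in limma), an increase of 30.3%. Without SHS female replicate 4 the female difference was 0.60 (adjusted p = 0.00105), and the male one passed the threshold (adjusted p = 0.0405). With any other array left out, neither passed it. Over all 16 such fits the difference ran from 0.30 to 0.60 in females and from 0.29 to 0.38 in males. Adipose markers, of which 7 of 8 had a probe set (Plin1 had none), averaged 7.52 to 8.38 in SHS females and 7.28 to 8.03 in air females, and 7.66 to 7.86 in SHS males and 7.35 to 7.76 in air males. The differences of the 7 ran from -0.18 to 0.37 in females and from -0.07 to 1.07 in males. None of the 7 was called, and their part in the Mest difference was not tested.

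Grb10, an adaptor protein that binds the insulin and IGF1 receptors and dampens their signalling, lies on chr11:11930499-12037428. Its main probe set (1425458_a_at) read 10.28, 10.17, 10.39 and 10.35 in SHS females, against 10.37, 10.37, 10.37 and 10.30 in air females, which overlapped. It read 9.79, 9.83, 9.82 and 9.96 in SHS males, against 10.17, 10.00, 10.19 and 10.15 in air males, which did not. The means were 10.30 ± 0.10 in SHS females and 10.36 ± 0.03 in air females (SD, n = 4 each), a log2 difference of -0.06 ± 0.07 (SE, adjusted p = 0.743 in limma). They were 9.85 ± 0.08 in SHS males and 10.13 ± 0.09 in air males (SD, n = 4 each), a log2 difference of -0.28 ± 0.07 (SE, adjusted p = 0.0253 in limma), so the intensity fell by 17.4% in males. The effects differed by 0.22 on the log2 scale, females minus males, with a 95% interval of 0.01 to 0.42 and an adjusted p of 0.584 in limma, so the call in males alone does not show a difference between the sexes. The averaged difference was -0.17 ± 0.05 (SE, adjusted p = 0.0331 in limma).

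The Grb10 calls were the least stable of the 4. Leaving out SHS male replicate 1, 2 or 3, or air male replicate 1, 3 or 4, left the male difference short of the threshold, with an adjusted p of 0.0533 to 0.0805. Leaving out these 6 arrays in turn, or SHS female replicate 1 or 2, or air female replicate 2 or 3, did the same to the averaged difference, with an adjusted p of 0.055 to 0.0716, while the log2 difference stayed between -0.19 and -0.15. The other Grb10 probe sets, 1430164_a_at and 1425457_a_at, differed by -0.14 and -0.23 in males and by -0.01 and 0.15 in females, with no call in either sex.

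**Figure D2:**
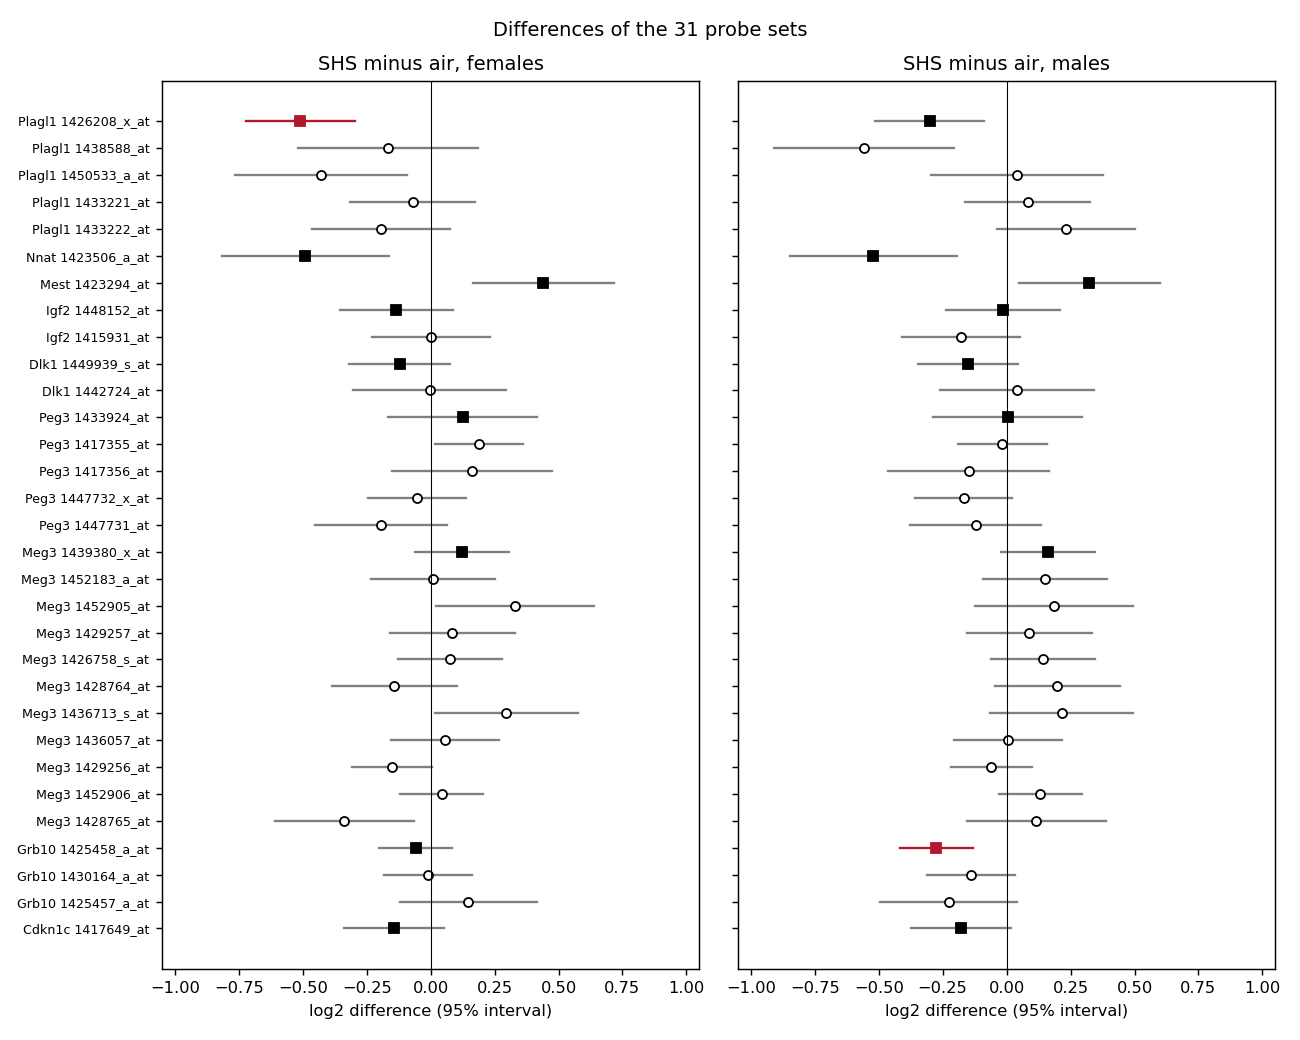
Log2 difference, SHS minus air, of each of the 31 member probe sets with its 95% interval, females on the left and males on the right. Squares are main probe sets, circles are the others, and red marks an adjusted p under 0.05. Plagl1 1426208_x_at at -0.51 in females and Grb10 1425458_a_at at -0.28 in males are in red, and most intervals cross 0.

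Igf2, the fetal growth factor that signals through the IGF1 receptor, lies on chr7:142650768-142666816 beside H19, with which it shares an imprinting control region. Its main probe set (1448152_at) read 7.61, 7.41, 7.58 and 7.98 in SHS females, against 7.71, 7.74, 7.75 and 7.93 in air females. It read 7.25, 7.07, 7.28 and 7.49 in SHS males, against 7.33, 7.19, 7.30 and 7.33 in air males. Both pairs of groups overlapped, and replicate 4 was the highest in each SHS group. Every male array but SHS replicate 4 lay below the highest average among probe sets of genes not expected in lung. The part of the signal on those arrays that came from Igf2 transcript is uncertain. The log2 differences were -0.13 ± 0.11 in females and -0.01 ± 0.11 in males (SE, adjusted p = 0.596 and 0.963 in limma), with 95% intervals of -0.36 to 0.09 and -0.24 to 0.21. The female difference was -0.24 without SHS replicate 4 (adjusted p = 0.121 in limma), -0.055 without SHS replicate 2 and -0.085 without air replicate 4, uncalled each time. The second probe set (1415931_at) lay between 4.04 and 4.68 on all arrays and differed by 0.00 in females and -0.18 in males, uncalled.

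Cdkn1c, which encodes the cyclin-dependent kinase inhibitor p57, lies on chr7:143458339-143461059. It read 8.90, 8.75, 8.86 and 9.09 in SHS females, against 9.10, 8.93, 9.06 and 9.08 in air females. It read 9.36, 9.34, 9.22 and 9.51 in SHS males, against 9.62, 9.28, 9.69 and 9.55 in air males. Within each sex the groups overlapped, with the SHS mean below the air mean. The log2 differences were -0.14 ± 0.09 in females and -0.18 ± 0.09 in males (SE), and the averaged one, -0.16 ± 0.07, missed the threshold (SE, adjusted p = 0.139 in limma). It passed without air male replicate 2 (-0.20, adjusted p = 0.0407).

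Dlk1, a membrane protein with EGF-like repeats related to the Notch ligands, lies on chr12:109452485-109463336 in the same imprinted domain as the long noncoding RNA Meg3 on chr12:109540996-109571729. Dlk1 (1449939_s_at) read 6.60, 6.60, 6.62 and 6.47 in SHS females, against 6.61, 6.64, 6.85 and 6.67 in air females. It read 6.24, 6.71, 6.61 and 6.60 in SHS males, against 6.65, 6.59, 6.69 and 6.84 in air males. In females 1 SHS array lay above the lowest air array, in males 3 did, and the log2 differences of -0.12 ± 0.09 and -0.15 ± 0.09 were not called (SE, adjusted p = 0.579 and 0.397 in limma). The female difference was -0.068 without air replicate 3, and the male one -0.049 without SHS replicate 1, the lowest SHS male, both uncalled. On every array 1449939_s_at lay below the highest average among probe sets of genes not expected in lung. The part of its signal that came from Dlk1 transcript is therefore uncertain. The second Dlk1 probe set (1442724_at) differed by -0.00 in females and 0.04 in males.

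Meg3 was read by 11 probe sets, of which 8 were higher and 3 lower in SHS females and 10 higher and 1 lower in SHS males, with no call in either sex. Its main probe set (1439380_x_at) read 8.94, 8.86, 8.90 and 8.76 in SHS females, against 8.70, 8.74, 8.75 and 8.78 in air females. It read 9.23, 9.27, 9.17 and 9.39 in SHS males, against 9.04, 8.92, 9.04 and 9.41 in air males. The one overlap in females was SHS replicate 4, and the one in males was air replicate 4, the highest of all males. The log2 differences were 0.12 ± 0.09 in females and 0.16 ± 0.09 in males (SE), and the averaged one was 0.14 ± 0.06 (SE, adjusted p = 0.164 in limma). Without air male replicate 4 the male difference was 0.26 (adjusted p = 0.0451) and the averaged one 0.19 (adjusted p = 0.0181). Probe sets 1452905_at and 1436713_s_at had averaged differences of 0.26 each (adjusted p = 0.131 and 0.0961 in limma). The lowest of the 11 by level, 1428765_at, differed by -0.34 in females and 0.12 in males.

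Peg3, a zinc finger protein known from maternal behaviour and metabolism in mice, lies on chr7:6703892-6730462. Its main probe set (1433924_at) read 8.30, 7.85, 8.53 and 8.66 in SHS females, against 8.40, 7.99, 8.19 and 8.26 in air females. It read 8.33, 8.47, 8.46 and 8.64 in SHS males, against 8.65, 8.29, 8.48 and 8.46 in air males. The groups overlapped in both sexes, and the log2 differences of 0.13 ± 0.14 and 0.00 ± 0.14 were not called (SE, adjusted p = 0.729 and 0.992 in limma). The female difference was 0.016 without SHS replicate 4, 0.29 without SHS replicate 2, 0.059 without SHS replicate 3 and 0.053 without air replicate 2, uncalled each time. Probe sets 1447731_at and 1447732_x_at lay between 2.86 and 3.58 on all arrays, inside the range of the Y-linked probe sets on female arrays. The remaining pair, 1417355_at and 1417356_at, differed by 0.19 and 0.16 in females and by -0.02 and -0.15 in males, uncalled.

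Some pairs of members also varied together from array to array, which is given as a description. With the mean of each of the 4 groups subtracted, Mest and Plagl1 correlated at -0.87 over 16 arrays, and at -0.60 over the 15 arrays without SHS female replicate 4. Within females this value was -0.94 and within males -0.34 (n = 8 each). Plagl1 and Nnat correlated at 0.67, and at 0.64 without that array. The inverse relation of Mest and Plagl1 thus rested in good part on SHS female replicate 4. The positive relation of Plagl1 and Nnat did not. Grb10, Peg3 and Cdkn1c correlated with each other at 0.72 to 0.75 after the same subtraction. For Grb10 and Cdkn1c the value was 0.48 within females and 0.91 within males. Other pairs lay near 0, such as Mest and Grb10 at 0.06 and Dlk1 and Cdkn1c at -0.02. All these values share the arrays and their normalization.

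**Figure D3:**
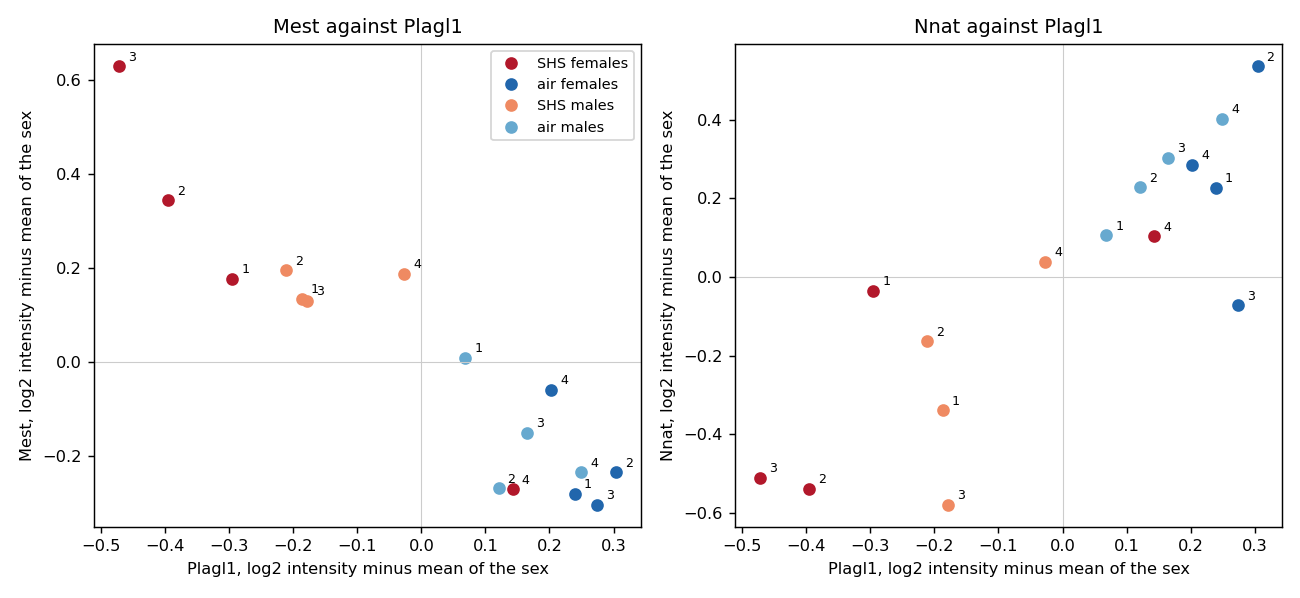
Mest (left) and Nnat (right) against Plagl1, main probe sets, log2 intensity minus the mean of the array's sex, 1 point per array with its replicate number. SHS arrays other than SHS female replicate 4 lie at lower Plagl1 and higher Mest than all air arrays. For Nnat, SHS female replicate 1 (-0.035) and SHS male replicate 4 (0.039) also lie above the lowest air array, air female replicate 3 (-0.072).

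Proliferation markers differed in the same groups. All 6 that had a probe set (Mki67, Top2a, Birc5, Cdk1, Rrm2 and Aurkb, with Ccnb1 unmeasured) rose after SHS, by 0.94 to 1.43 log2 units in females and by 0.97 to 1.43 in males. Their mean level was 9.17, 9.33, 9.33 and 8.54 in SHS females, against 8.02, 7.68, 7.81 and 7.92 in air females. It was 9.30, 9.29, 9.31 and 8.78 in SHS males, against 7.89, 8.19, 7.85 and 8.17 in air males. Within both SHS groups, replicate 4 had the lowest proliferation markers and the highest Plagl1 and Nnat. With group means subtracted, the markers correlated over 16 arrays at -0.80 with Plagl1, -0.61 with Nnat, -0.58 with Grb10 and 0.53 with Mest. Without SHS female replicate 4 these values were -0.50, -0.46, -0.61 and -0.10. For Mest the value was 0.85 within females and -0.56 within males (n = 8 each), so its sign was not shared by the sexes. The part of dividing cells in the members' differences was not tested.

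**Figure D4:**
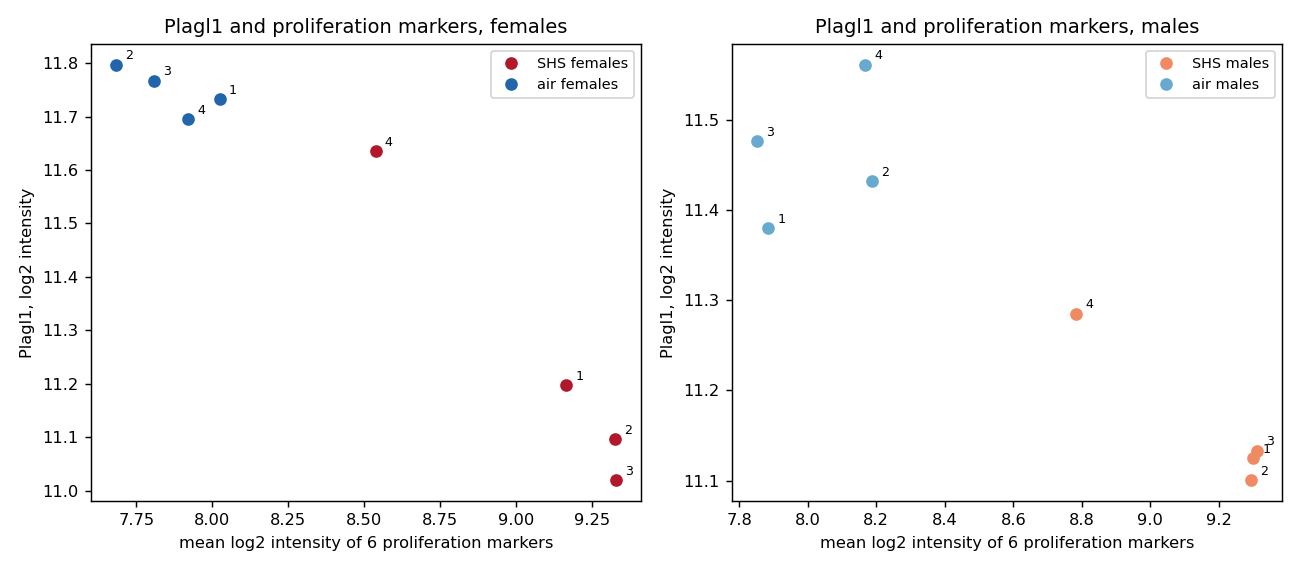
Plagl1 main probe set (log2 intensity) against the mean log2 intensity of 6 proliferation markers, females on the left and males on the right, 1 point per array with its replicate number. Replicate 4 of each SHS group lies between its group and the air arrays, at 8.54 in females and 8.78 in males on the horizontal axis.

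The 7 endothelial markers averaged 11.24, 11.16, 11.20 and 11.64 in SHS females, against 11.61, 11.52, 11.33 and 11.47 in air females, and 10.91, 10.87, 10.91 and 11.13 in SHS males, against 10.94, 10.84, 10.93 and 11.05 in air males. Tek, the angiopoietin receptor, was called, lower by -0.46 in females and by -0.41 in the averaged effect (adjusted p = 0.0356 and 0.00307 in limma), and the other 6 (Pecam1, Cdh5, Kdr, Tie1, Emcn and Vwf) were not called in females, males or the averaged effect. Plagl1 correlated with the mean of the 7 at 0.84 with group means subtracted, and at 0.56 without SHS female replicate 4. With the mean of the 8 lung markers, Cdh5 again among them, Plagl1 correlated at 0.63, and at 0.70 without that array. Of 10 fibroblast markers, Tcf21 was called lower in females, and Pdgfra, Tcf21 and Dpt in the averaged effect. The averaged differences of all 10 ran from -0.29 to 0.32, and the highest was uncalled. Of 7 smooth muscle and pericyte markers, none was called within a sex. Acta2 (0.21, adjusted p = 0.0323 in limma) and Des (0.21, adjusted p = 0.0455 in limma) were called higher in the averaged effect. The averaged differences of all 7 ran from -0.25 to 0.21, so an uncalled marker fell by more than either rose.

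The leukocyte markers with a probe set were 4 (Ptprc, Itgam, Cd3e and Siglecf), and none was called in females, males or the averaged effect. Their mean level was 9.81, 9.83, 10.06 and 9.28 in SHS females, against 9.79, 9.72, 9.63 and 9.52 in air females. It was 9.94, 9.93, 9.74 and 9.45 in SHS males, against 9.92, 9.82, 9.61 and 9.85 in air males. The groups overlapped in both sexes, and replicate 4 was the lowest of each SHS group. With group means subtracted, the leukocyte mean correlated over 16 arrays at -0.82 with Plagl1, -0.79 with Igf2 and 0.63 with Mest, and without SHS female replicate 4 at -0.58, -0.59 and 0.17. The part of these cell types in the members' differences was not tested.

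The genes whose pattern was most like a called member were the 3 with the highest Pearson r over 16 arrays with sex means subtracted, among genes above the median level of 7.02. For Plagl1 these were the aldehyde dehydrogenase Aldh2 (r = 0.96), the flavin monooxygenase Fmo1 (0.96) and Tek (0.95), with female log2 differences of -0.36, -0.35 and -0.46. For Mest they were Haus8 (0.93), a subunit of the augmin complex of the spindle, the receptor Gpr35 (0.92) and the haematopoietic transcription factor Nfe2 (0.92), with female differences of 0.35, 0.50 and 0.39. For Nnat they were the RNA-binding protein Msi2 (0.93), the LIM-domain-binding protein Ldb2 (0.92) and 0610009L18Rik (0.92), with male differences of -0.29, -0.26 and -0.12. For Grb10 they were the kinase anchor protein Akap9 (0.94), Gm20300 (0.93) and the lymphatic growth factor Vegfc (0.93), with male differences of -0.25, -0.36 and -0.50. In the sex shown, Aldh2, Tek, Msi2, Ldb2, Gm20300 and Vegfc were called, and the others, with all 3 for Mest among them, were not. In the other sex only Gpr35 in males and Ldb2 in females were called. The 3 for Grb10 differed by -0.04, -0.17 and -0.19 in females. The correlations include the SHS effect itself, and genes picked as the most alike of many are high by the choice.

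Other imprinted genes, 57 measured of 68 listed, were mostly without a call. In females 1 was higher and 1 lower, in males again 1 and 1, and in the averaged effect 3 and 3, with a median averaged log2 difference of -0.01 beside 0.00 over all genes. Of all probe sets 2.87% were called in females, 5.18% in males and 10.3% in the averaged effect. These shares stand beside the counts of this and the other lists and markers. Lists take 1 probe set per gene, for which no share was computed. Tfpi2, a serine protease inhibitor imprinted in the placenta near Peg10, rose by 0.73 in females and 0.44 in males (adjusted p = 0.00282 and 0.0454 in limma). Ppp1r9a, an actin-binding partner of protein phosphatase 1 in the same domain, fell by 0.36 in females and 0.46 in males (adjusted p = 0.0404 and 0.00738 in limma). In the averaged effect H13 (0.31) and Tssc4 (0.24) were also higher, and Inpp5f (-0.17) and Impact (-0.16) lower. Among neighbours of members, Copg2 next to Mest, Rian and Mirg next to Meg3 and Usp29 and Zim1 next to Peg3 were not called, with averaged differences of 0.01, 0.19, 0.04, -0.07 and 0.02. Of 9 partners in the published network of coexpressed imprinted genes, Gatm, which makes the precursor of creatine, rose by 0.94 in females (adjusted p = 0.0104 in limma), and the other 8 were not called in females, males or the averaged effect.

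Genes of IGF and insulin signalling, the pathway of Igf2 and Grb10, were 28 measured of 29 listed. None was called in females (lowest -0.55, highest 0.57), 1 was higher and 3 lower in males, and 2 were higher and 4 lower in the averaged effect, whose median was -0.04. In males the insulin receptor Insr fell by 0.37, and so did Grb7 by 0.37 and Grb14 by 0.29, the other adaptors of the Grb10 family (adjusted p = 0.0349, 0.026 and 0.0213 in limma). Igfbp4, which binds and holds back IGFs, rose by 0.45 in males (adjusted p = 0.00868 in limma) and differed by -0.02 in females. In the averaged effect Akt2 (0.18) was also higher and Foxo1 (-0.21) lower. The IGF receptors Igf1r and Igf2r differed by -0.18 and -0.02 in the averaged effect, uncalled.

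Cell cycle genes that act with Cdkn1c, all 15 measured, had 4 members higher and none lower in females, 4 and none in males, and 7 higher and 1 lower in the averaged effect, with a median averaged difference of 0.21 beside 0.00 over all genes. Cyclin A2 (Ccna2) rose by 1.12 in females and 0.96 in males (adjusted p = 0.00141 and 0.00341 in limma) and cyclin E2 (Ccne2) by 0.77 and 0.58 (adjusted p = 0.00259 and 0.0129 in limma). Ccne1 rose by 0.42 and the inhibitor Cdkn1a by 0.36 in females, and Ccnd3 rose by 0.40 and the inhibitor Cdkn2d by 0.29 in males. In the averaged effect Ccnd2 (0.24) was also higher, and Cdkn1b (-0.36), the inhibitor p27, was lower. Inhibitors of the same family as Cdkn1c thus differed in direction, Cdkn1a higher and Cdkn1b lower.

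Notch ligands, receptors and targets, the partners of Dlk1, were all measured (13), with 1 called lower in females, none in males and 3 lower in the averaged effect. Dll4, the Notch ligand of sprouting vessels, fell by 0.46 in females (adjusted p = 0.00906 in limma) and had a difference of -0.12 in males. In the averaged effect Hey1 (-0.29) and Jag1 (-0.24) were lower as well. Of 14 genes that keep or erase imprints, Uhrf1, which brings Dnmt1 to newly copied DNA, rose by 0.86 in females and 1.06 in males (adjusted p = 0.000585 and 0.000131 in limma). Dnmt1, the maintenance methyltransferase, rose by 0.29 in males (adjusted p = 0.0466 in limma), and the other 12, among them Zfp57, Trim28 and the Tet genes, were not called in females, males or the averaged effect. Uhrf1 and Dnmt1 are made most in dividing cells, and the proliferation markers given above rose in the same groups. The part of dividing cells in the rise of Uhrf1 and Dnmt1 was not tested.

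**Figure D5:**
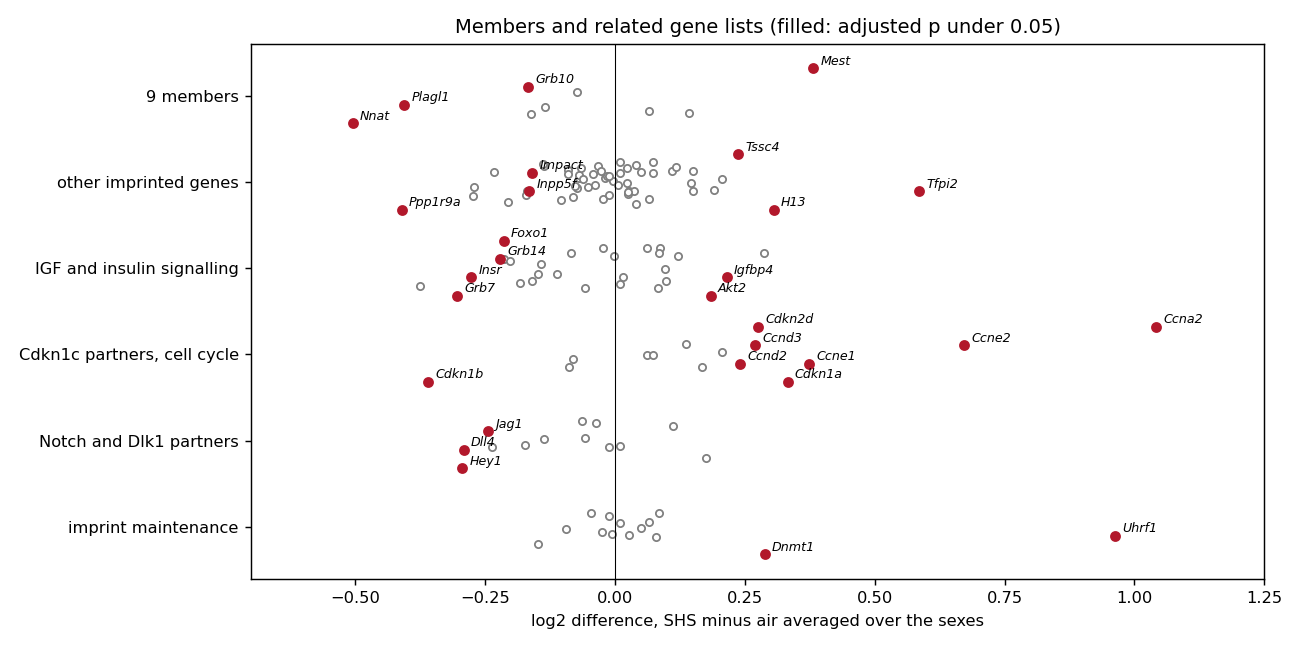
Averaged log2 difference, SHS minus air, of the 9 measured members and of 5 lists of related genes, 1 point per gene with vertical position only for legibility. Filled red points have an adjusted p under 0.05 and are named. Most other imprinted genes lie near 0, and Ccna2 at 1.04 and Uhrf1 at 0.96 lie farthest to the right.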

How the data were processed

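Per the labels, Trizol RNA of 16 left lungs was hybridized to Affymetrix arrays, 1 lung each. The authors deposited normalized log2 values, 1 per probe set and array; how they normalized is not stated in the labels or files, and limma is named, unversioned, in the submitters' processing notes. The values were used as deposited, and their base was read from their range of 2.58 to 15.2. Of 45101 features, 64 controls were left out. Genes came from GEO's platform annotation and positions and promoters from RefSeq (GRCm38.p6); Igf2's listed synonym M6pr, a gene of its own, was left out, and Cdkn1c and H19 promoters are named only.

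Means of the 4 groups were fitted in limma 3.58.1 (R 4.3.3) with 12 residual and 5.56 prior degrees of freedom, two-sided, with Benjamini-Hochberg adjustment over 45037 probe sets. SHS minus air was taken within females, within males, as their mean, and as females minus males of this effect. The steps were tested on simulated data. There, 24% of 50 probe sets changed 1.25-fold in SHS females and 64% of 50 changed 1.5-fold were called in the right direction. A difference that was not called is thus not shown to be absent. Arrays were not paired by replicate number in the main fit. Deviations of same-numbered SHS and air arrays from their group means correlated at -0.08 to 0.27 in females and 0.02 to 0.12 in males. Differently numbered arrays were not compared, so whether a number marks a shared batch was not tested. Genes outside the members were named where called in a list (up to 8 per list) or among the 3 most alike to a called member; the uncalled list genes and markers named by symbol were chosen after their values were seen. Members and lists were chosen with earlier results of these data known. Alternatives were 2 normalizations, a filter, a replicate block, the 2 groups alone, a trended robust prior, array weights, a looser threshold, other probe sets and each array left out.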

Additional observations from a re-analysis of the deposited data

Results flagged for a closer look

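In 3 of the 36 combinations of gene and group, 1 array stood apart from the other 3 by Dixon's criterion for 4 values, which chance meets in about 1 of 20 groups. Dlk1 read 6.47 on 1 SHS female array, against 6.60 to 6.62 on the other 3. Igf2 read 7.93 on 1 air female array, against 7.71 to 7.75 on the others. Grb10 read 10.30 on 1 air female array, against 10.37 on the others, and the air females varied least for this gene. The SHS female replicate 4 was the low array for Dlk1, and air female replicate 4 the odd array for both Igf2 and Grb10.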

How the results depend on the processing

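The averaged differences of Plagl1, Nnat and Mest passed the threshold under all 23 alternatives of the fit, with an adjusted p of at most 0.00402, 0.0163 and 0.0294. Counts of calls moved more. In females 1294 probe sets and 1 member became 448 and 0 with the arrays of the 2 groups alone, 3985 and 4 with array weights and 2334 and 2 at an adjusted p under 0.10, and 657 to 3604 and 1 to 4 with an array left out. In males 2332 and 1 became 4398 and 4 with array weights and 4073 and 4 at 0.10, and 1073 to 3153 and 0 to 4 with an array left out. In males they were also 2507 and 2 under quantile normalization, 2805 and 2 under the trended prior, 2808 of 27022 and 3 under the filter and 2760 and 4 with the groups alone. Averaged over the sexes, 4652 and 4 became 7717 and 6 with array weights, and 3514 to 6983 and 3 to 6 with an array left out. The replicate block gave 1537, 2439 and 5061 calls in females, males and the average, 1, 2 and 5 of them members, with Nnat in males past the threshold (adjusted p = 0.0313). Under quantile normalization 70.6% of the female calls were higher, against 82.0% as deposited. Directions turned, uncalled, in other probe sets, in females Igf2 1415931_at (0.0012), Meg3 1428764_at (-0.14), 1428765_at (-0.34) and 1429256_at (-0.15), Peg3 1447731_at (-0.19) and 1447732_x_at (-0.054) and Grb10 1425457_a_at (0.15). In males these were Plagl1 1433221_at (0.082), 1433222_at (0.23) and 1450533_a_at (0.041), Dlk1 1442724_at (0.040), Meg3 1429256_at (-0.060) and Peg3 1417355_at (-0.016), 1417356_at (-0.15), 1447731_at (-0.12) and 1447732_x_at (-0.17). Peg3 in males turned with array weights (-0.024). With an array left out, Igf2 in males ran from -0.086 to 0.053, Peg3 in males from -0.057 to 0.065, and females minus males from -0.020 to 0.28 for Mest and -0.085 to 0.13 for Nnat. The cause of these changes was not tested.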
